A study of Mus musculus with 8 samples.

Results

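Primordial germ cells are the embryonic founders of eggs and sperm, and a small set of genes is known for their specification. The 7 genes described here are Prdm1 and Prdm14, which encode transcriptional regulators, Dppa3 (also called Stella), Nanos3 and Dnd1, which encode RNA-binding proteins, and Kit and Ifitm3, which encode proteins of the cell surface. They were found by matching these symbols in the GENCODE vM1 annotation to the gene identifiers in the count files, and all 7 of the 7 were present among 37620 genes. Their levels are given as counts-per-million values (CPM), taken over all gene counts of a library on the strand that the library chemistry reports.

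RNA-seq was available for 8 libraries of mouse cells. Of these, 7 came from the mouse embryonic stem cell (mESC) line R1 in its own or a differentiated state, and 1 from a line in which green fluorescent protein (GFP) reports Cdx2. Per the study's methods, R1 stem cells were maintained in medium with serum and without feeder cells. Whether the GFP line was grown with feeder cells is not stated there. Every stem cell library had received 2i, the GSK3 inhibitor CHIR99021 at 3 µM with the MEK inhibitor PD0325901 at 1 µM. The libraries were 2i on day 5 (n = 1), 2i with 2 µM JAK inhibitor (2iJ) on day 5 (n = 1), and 2iJ with 10 ng/ml BMP4 and 10 µM ALK5 inhibitor II (2iJ+B-A) on days 2, 5 and 11 (n = 3). A further group was the GFP-positive fraction, sorted from a day 2 culture in 2iJ+B-A (n = 1), and the last was mesoderm progenitors on days 3 and 4 (n = 2). The mesoderm progenitors came from embryoid bodies that were re-aggregated with BMP4, Activin A and Wnt3a in a medium with no serum listed. An inhibitor of Wnt secretion was added after the day 3 harvest, so for these cells day and treatment cannot be told apart. No library was made from sorted germ cells.

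In the embryo, BMP4 from the extraembryonic ectoderm acts on Wnt-primed epiblast cells, and these then turn on Prdm1 and Prdm14 together with Tfap2c (Tcfap2c in this annotation). Prdm1 is known for repressing somatic genes, and Prdm14 for maintaining pluripotency genes and for keeping DNA methylation low. Several of these genes are also active in naive mESCs, so their RNA in a culture does not by itself mark a germ cell. In these bulk samples, fewer cells that express a gene and less of its RNA per cell cannot be told apart.

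The members lie on 7 chromosomes in the NCBIM37 build, and all are annotated as protein coding. Prdm1 (ENSMUSG00000038151) spans chr10:44156983-44248307 and Prdm14 (ENSMUSG00000042414) spans chr1:13103538-13117244, both on the minus strand. Dppa3 (ENSMUSG00000046323) is at chr6:122576428-122580290 and Kit (ENSMUSG00000005672) at chr5:75970941-76052747, both on the plus strand. Nanos3 (ENSMUSG00000056155) is at chr8:86697632-86700451 and Ifitm3 (ENSMUSG00000025492) at chr7:148195485-148196669, both on the minus strand, as is Dnd1, whose position is given with its levels. Reads were counted over exons, whose merged length ran from 678 bases in Ifitm3 to 5831 bases in Kit.

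Promoter windows of 300 bases, 250 before and 50 after an annotated start, were taken from RefSeq (GRCm38.p6) for 4 of the 7 members. These were Prdm1, Nanos3, Kit and Ifitm3, and no window was used for Prdm14, Dppa3 or Dnd1. The windows were searched on both strands for motifs of the signals that the cultures changed, and a match is a description of letters only. The palindrome GGCGCC, a form of the GC-rich site of the BMP-activated SMAD proteins, was in none of the 4 windows and in 11.9% of all 32851 windows of that length. Its core GGCGC, which lies inside GGCGCC, was in the Prdm1 and Kit windows and in 36.9% of all windows. The stretch before the start is shown for these, since Prdm1 had the largest fitted decrease of the 7 genes when BMP4 and the ALK5 inhibitor were present, and Kit is the member with the highest CPM in 2iJ. Capitals mark the core, which reads GCGCC on the printed strand. The windows lie at chr10:44458749-44458998 on the minus strand and chr5:75574737-75574986 on the plus strand, and each is printed 5′ to 3′.
Prdm1: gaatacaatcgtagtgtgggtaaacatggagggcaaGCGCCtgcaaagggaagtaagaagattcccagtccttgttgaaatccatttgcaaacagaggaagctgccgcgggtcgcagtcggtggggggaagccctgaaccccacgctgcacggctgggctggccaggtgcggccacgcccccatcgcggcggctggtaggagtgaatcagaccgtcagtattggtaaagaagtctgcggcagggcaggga
Kit: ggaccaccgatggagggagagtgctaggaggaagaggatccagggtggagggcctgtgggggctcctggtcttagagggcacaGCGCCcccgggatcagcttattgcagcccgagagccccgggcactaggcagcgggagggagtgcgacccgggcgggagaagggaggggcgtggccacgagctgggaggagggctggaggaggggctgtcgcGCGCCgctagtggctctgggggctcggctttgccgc

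In Ifitm3, an interferon-inducible gene, the motifs lay just after the start. TTCNNNGAA, the site of STAT proteins that JAK kinases activate, was in the Ifitm3 window and in 8.3% of all windows. GAAANNGAA, part of an interferon-type element, matched 2 times in the Ifitm3 window and was in 8.56% of all windows. Neither was in the Prdm1, Nanos3 or Kit windows. The 26 bases from position 3 to position 28 after the start, chr7:141010717-141010742 on the minus strand, are shown with the matches in capitals. The STAT-type match overlaps the later interferon-type match.
Ifitm3: GAAAAGGAAacTTCTGAGAAACCGAA

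Total gene counts ran from 19810855 in the sorted library to 31453888, and 3 counts, taken as the smallest level that a library can show, correspond to 0.0954 to 0.151 CPM. The sorted library stood apart, with 29.7% of its read pairs unmapped against 2.17% to 3.85% in the others, and with the 6 genes of a fibroblast list summing to 93.5 CPM against 7.98 to 15.9 CPM. All 6 fibroblast genes reached 1 CPM in it, against 2 to 4 elsewhere, where Dcn was at 0 counts in 5 libraries. The labels were checked against marker genes. The pluripotency list of 10 genes summed to between 3181 and 5207 CPM in the 6 stem cell libraries. In the mesoderm progenitors of days 3 and 4 it summed to 994 and 199 CPM. The 8 nascent mesoderm genes summed to 1582 and 819.6 CPM there and to at most 123 CPM elsewhere. On day 4 most of that sum came from Pdgfra (240 CPM) and Hand1 (540 CPM), which is also on the trophectoderm list. The other genes of the list were then at 1.26 CPM (Tbx6) to 22.2 CPM (Eomes), each below its day 3 level. In the sorted cells Cdx2 reached 235 CPM, with 15.0 to 30.1 CPM in unsorted 2iJ+B-A. Intervals of single levels below are 95% Wilson intervals, which cover counting error only.

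**Figure D1:**
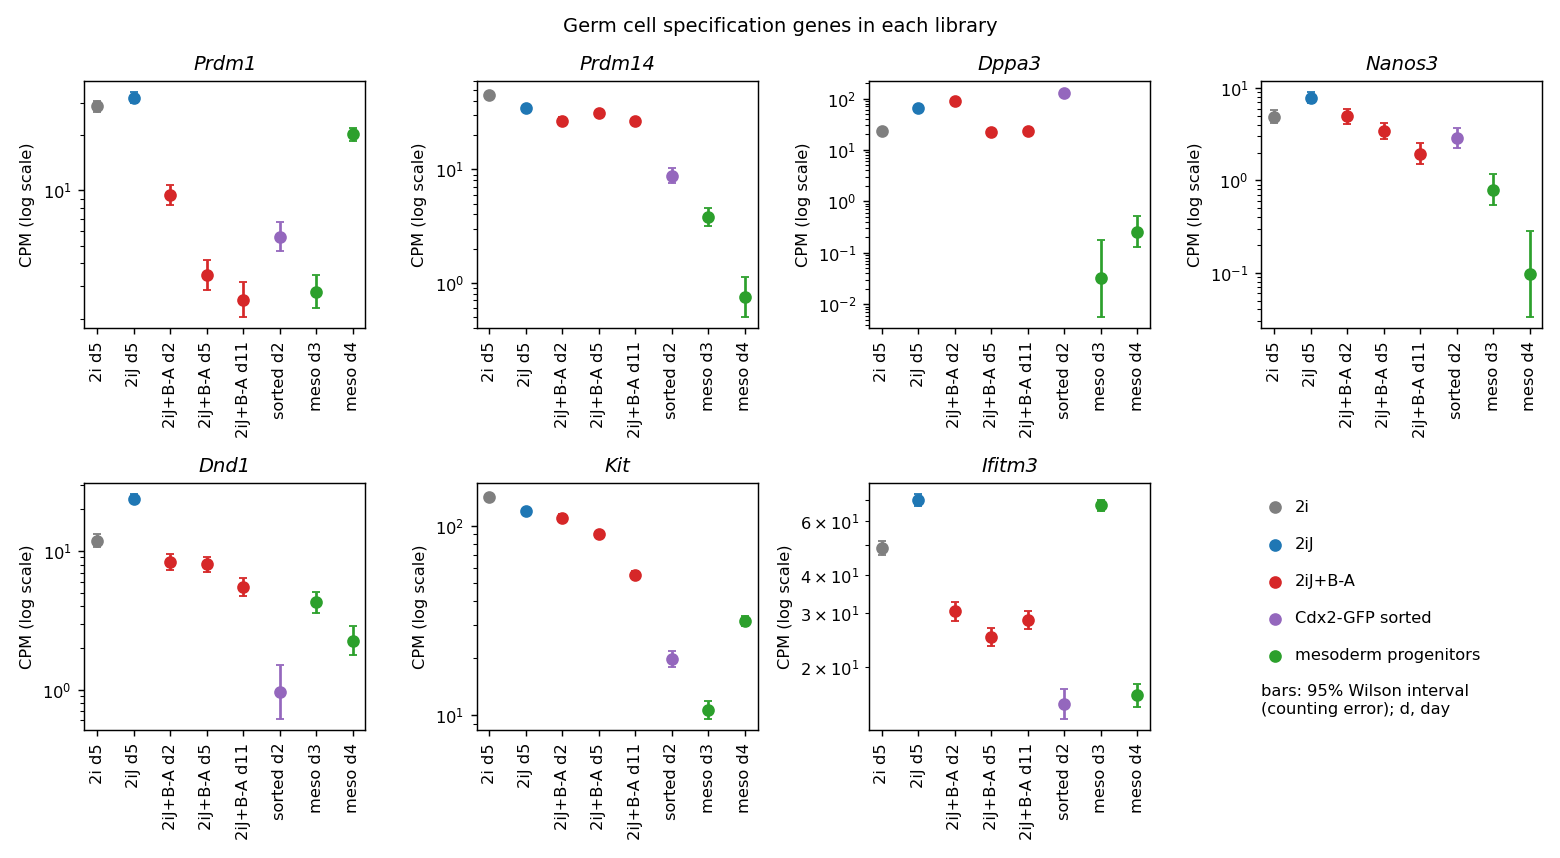
CPM of each gene (log axis, a separate scale per gene) in the 8 libraries, colored by group, with 95% Wilson intervals as bars. Prdm14, Dppa3 and Nanos3 are lowest in both mesoderm progenitor libraries, whereas Prdm1 and Ifitm3 differ 7.22-fold and 4.16-fold between those libraries.

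Prdm1, the repressor of the somatic program, was highest without BMP4. It was at 28.7 CPM in 2i and 32.0 CPM in 2iJ, whose intervals overlapped. In 2iJ+B-A it was at 9.46 CPM on day 2, 3.47 CPM on day 5 and 2.54 CPM on day 11, so each of these libraries lay below 2i and 2iJ. The sorted cells had 5.60 CPM. In the mesoderm progenitors it was at 2.80 and 20.2 CPM on days 3 and 4, from 88 and 625 counts. The day 3 interval overlapped those of 2iJ+B-A on days 5 and 11. The day 4 library thus stood between the 2i and 2iJ+B-A libraries.

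Prdm14, the guardian of naive pluripotency, was highest in 2i and lower in each 2iJ+B-A library than in 2iJ. Its level was 45.5 CPM in 2i, 35.1 CPM in 2iJ, and 26.7, 31.6 and 26.8 CPM on days 2, 5 and 11 of 2iJ+B-A. The 2iJ interval (32.9 to 37.4 CPM) overlapped that of 2iJ+B-A on day 5 (29.7 to 33.6 CPM), and days 2 and 11 did not differ beyond counting error. The sorted cells had 8.83 CPM, and days 3 and 4 of the mesoderm progenitors 3.82 and 0.743 CPM. Every unsorted stem cell library was thus above the sorted library, and the sorted library above both mesoderm progenitor libraries.

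Dppa3, which protects the maternal genome from loss of methylation in the early embryo and marks newly formed germ cells, had the widest range of the 7 as a ratio of highest to lowest level. It was at 127 CPM in the sorted cells, 91.4 CPM in 2iJ+B-A on day 2 and 64.6 CPM in 2iJ. The other stem cell libraries had nearly equal levels, with 23.3 CPM in 2i, 22.0 CPM on day 5 and 23.9 CPM on day 11 of 2iJ+B-A, and their intervals overlapped. In the mesoderm progenitors only 1 count was found on day 3 and 8 on day 4 (0.0318 and 0.258 CPM), and the day 3 value lies under the smallest level of 3 counts.

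Nanos3 supports the survival of migrating germ cells. Its level was low throughout, from 7.86 CPM in 2iJ through 4.93 CPM in 2iJ+B-A on day 2 and 4.90 CPM in 2i to 3.43 CPM on day 5, 2.88 CPM in the sorted cells and 1.95 CPM on day 11. Day 2 of 2iJ+B-A overlapped 2i and day 5 in its interval, as did day 5 and the sorted cells, and the sorted cells and day 11. Of the mesoderm progenitors, day 3 had 0.795 CPM (25 counts) and day 4 only 0.0969 CPM (3 counts, at the smallest level that can be shown).

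Dnd1, a partner of NANOS proteins that binds mRNA 3′ ends, spans chr18:36923325-36925868 (ENSMUSG00000044595). It was at 23.9 CPM in 2iJ and 11.9 CPM in 2i. It was at 8.32, 8.04 and 5.50 CPM on days 2, 5 and 11 of 2iJ+B-A, of which days 2 and 5 overlapped. Days 3 and 4 of the mesoderm progenitors stood at 4.26 and 2.26 CPM, of which the former overlapped day 11 of 2iJ+B-A. The sorted cells had 0.959 CPM (19 counts), the lowest of the 8 libraries. The plus-strand gene Wdr55 overlaps the end of Dnd1, and between 12.3% and 65.4% of the counts assigned to Dnd1 by strand lay on the opposite strand.

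**Figure D2:**
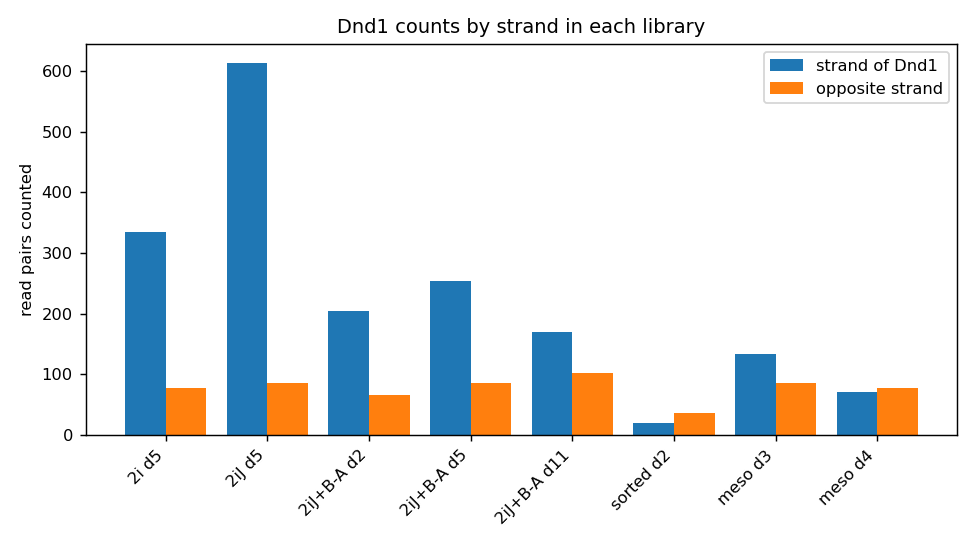
Read pairs counted on the strand of Dnd1 and on the opposite strand in each of the 8 libraries (linear axis from 0). Counts on the strand of Dnd1 run from 19 in the sorted library to 614 in 2iJ, and those on the opposite strand from 36 to 102.

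Kit, the receptor of stem cell factor on which germ cells, blood progenitors and melanocytes depend, had its highest levels in the stem cells, with 142 CPM in 2i, 119 CPM in 2iJ, and 110, 89.9 and 54.7 CPM on days 2, 5 and 11 of 2iJ+B-A. The mesoderm progenitors of day 4 had 31.4 CPM, the sorted cells 19.7 CPM and the mesoderm progenitors of day 3 10.6 CPM. No neighbors in this order overlapped in their intervals. The sorted library lay between the mesoderm progenitor libraries.

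Ifitm3 (Fragilis), an interferon-inducible membrane protein, was at 70.0 CPM in 2iJ, 67.3 CPM in the mesoderm progenitors of day 3 and 48.9 CPM in 2i. The 2iJ and mesoderm day 3 intervals overlapped. It was at 30.5, 25.1 and 28.5 CPM on days 2, 5 and 11 of 2iJ+B-A, and at 16.2 and 15.2 CPM in the mesoderm progenitors of day 4 and in the sorted cells, which overlapped. Its relatives Ifitm1 and Ifitm2 are similar in sequence, and only uniquely aligned read pairs were counted, so reads shared among them would be lost.

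Levels of different genes were compared per kilobase of exon. In 2iJ, the order on this scale was Ifitm3 (103 CPM per kb), Dppa3 (72.4), Kit (20.35), Prdm14 (13.7), Nanos3 (10.8), Dnd1 (9.91) and Prdm1 (5.83). Among protein-coding genes ranked by CPM per kb, Ifitm3 stood at the 97.5th percentile in 2iJ and Prdm1 at the 70.1st. In the mesoderm progenitors of day 4, Ifitm3 remained the highest of the 7 at 23.9 CPM per kb, followed by Kit at 5.38 and Prdm1 at 3.68.

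To ask how a BMP4-, Activin- and Wnt3a-treated mesoderm population differs from stem cells that had received BMP4, the mesoderm progenitors were compared with 2iJ+B-A. Dppa3, Prdm14 and Kit fell, and none of the 7 rose past the threshold. Levels averaged 0.145 ± 0.160 CPM for Dppa3 in the mesoderm progenitors (SD, n = 2) against 45.7 ± 39.5 CPM in 2iJ+B-A (SD, n = 3), 2.28 ± 2.17 CPM against 28.4 ± 2.77 CPM for Prdm14, and 21.0 ± 14.7 CPM against 84.9 ± 28.1 CPM for Kit. The libraries of the groups did not overlap for any of these 3 genes, but the share of all genes with such a separation was not counted. The log2 fold change of Dppa3 was -8.26 in edgeR (SE 1.17, adjusted p = 0.00607), with only 1 and 8 counts behind the mesoderm values. Day 4 of the mesoderm progenitors was 85.0-fold below day 5 of 2iJ+B-A (95% interval 42.9 to 198) from 8 and 691 counts. For Prdm14 the log2 fold change was -3.63 (SE 0.67, adjusted p = 0.0125).

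For Kit it was -2.0 (SE 0.53, adjusted p = 0.0366), and this call was lost without the mesoderm progenitors of day 3 (adjusted p = 0.0593), without day 2 of 2iJ+B-A (0.0974) and without day 5 (0.098). The calls of Dppa3 and Prdm14 held without any 1 of these libraries, with adjusted p-values between 0.0101 and 0.0172 and between 0.00151 and 0.0444. Thus 3 of the 7 members fell, where 15.5% of the 16961 genes tested fell, 11.5% rose and 27% changed in either direction. At an unadjusted p under 0.05 these were 5 of the 7 and 40.7% of all genes, and DESeq2 called the same number of members, with 32.4% of all genes. The median log2 fold change of the 7 was -2.0, and that of all genes tested was -0.03.

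Nanos3 and Dnd1 did not pass. Nanos3 had a log2 fold change of -2.93 (SE 0.91, adjusted p = 0.0566) and did pass without the mesoderm progenitors of day 3 (-5.02, adjusted p = 0.0152). Dnd1 had a log2 fold change of -1.15 (SE 0.41, adjusted p = 0.0856), and passed without the same library (-1.61, adjusted p = 0.0462). All 3 libraries of 2iJ+B-A were above both mesoderm libraries for both of these genes, again without a count over all genes. Against all 6 stem cell libraries, the mesoderm progenitors did not overlap for Prdm14, Dppa3 and Nanos3, each lower, where 20.2% of all genes did so. No member lay above all 6, where 19.3% of all genes did. Set against 2iJ alone, 6 of the 7 were at least 2-fold lower on day 3 (all but Ifitm3) and 6 on day 4 (all but Prdm1), where 21.4% and 23.7% of all genes were, and none was 2-fold higher, where 17.6% and 20.2% were.

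Prdm1 and Ifitm3 differed more between the mesoderm days than between the groups. Prdm1 had a log2 fold change of 1.17 (SE 0.88, adjusted p = 0.363), which turned to -0.84 without day 4. Ifitm3 had 0.58 (SE 0.53, adjusted p = 0.455). It turned to -0.72 without day 3, and without day 4 it was 1.30 higher with adjusted p = 0.0143. From day 3 to day 4, Prdm1 was 7.22-fold higher (95% interval 5.76 to 9.13) and Kit 2.95-fold higher (2.61 to 3.36). Over the same step Ifitm3 was 4.16-fold lower (3.77 to 4.59), Prdm14 5.13-fold lower (3.27 to 8.41) and Dnd1 1.88-fold lower (1.40 to 2.55). Nanos3 was 8.20-fold lower from 3 and 25 counts (2.50 to 42.4). These are values of 1 library a day, without a test. At least 2-fold lower were 3 members, where 14% of all genes were, and at least 2-fold higher 3, where 10.5% were. One of those is Dppa3, from 8 and 1 counts, with an interval from 1.09 to 361.

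Markers of other cell types differed between these days as well. The sum of 10 blood and endothelium genes was 92.1 and 454 CPM on days 3 and 4, with 7 and 9 of them at 1 CPM or more and none at 0. Kdr, a receptor of endothelial precursors, went from 67.8 to 305 CPM and the blood regulator Tal1 from 0.382 to 42.6 CPM, while T, the mesoderm factor Brachyury, went from 547 to 6.30 CPM. The part of this change in cell types in the levels of Prdm1 and Kit was not tested.

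**Figure D3:**
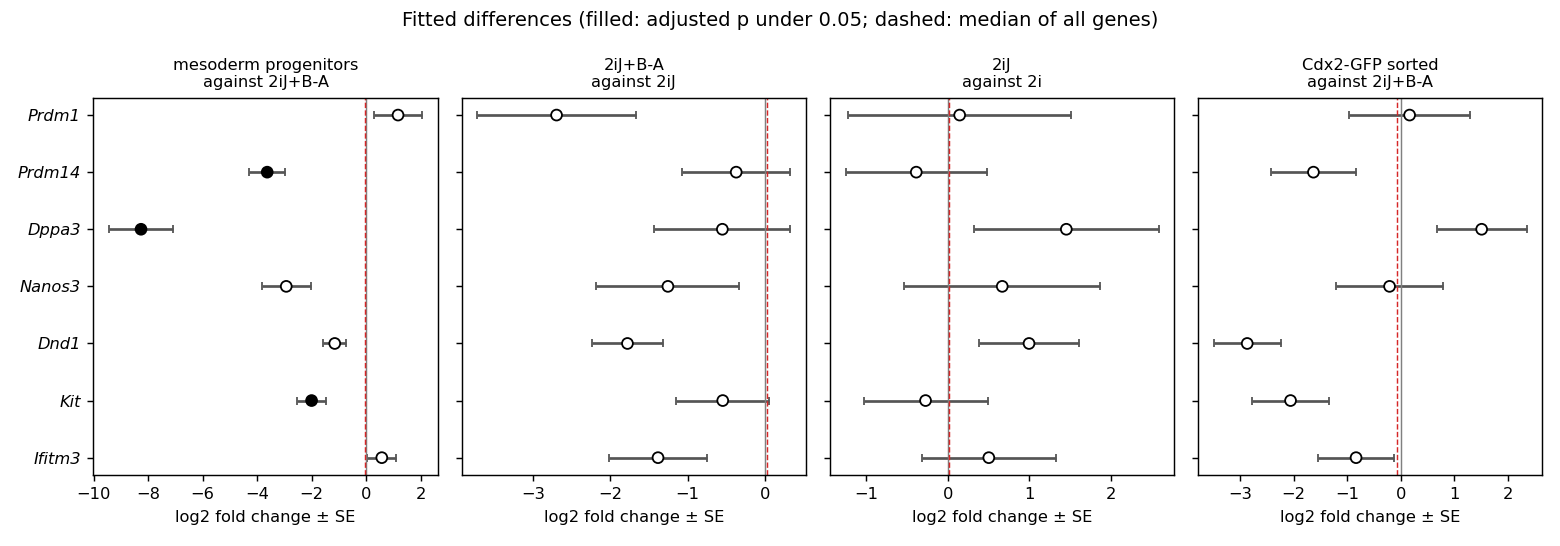
Fitted log2 fold change of each gene with its standard error in 4 comparisons, each panel with its own horizontal scale. Filled points passed the adjusted p threshold of 0.05, which were Prdm14, Dppa3 and Kit in the comparison of the mesoderm progenitors with 2iJ+B-A, and the dashed line is the median of all genes tested.

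To examine what BMP4 with the ALK5 inhibitor did under JAK inhibition, 2iJ+B-A was compared with 2iJ. All 7 members had negative fold changes, none passed, and their median was -1.25 on the log2 scale against 0.03 for all genes tested. The fitted changes were -2.69 for Prdm1 (SE 1.02, adjusted p = 0.622) and -1.78 for Dnd1 (SE 0.46, adjusted p = 0.47), the members with the lowest unadjusted p-values in edgeR (0.0369 and 0.00748). Ifitm3 had -1.38, Nanos3 -1.25, Dppa3 -0.55, Kit -0.54 and Prdm14 -0.37. In edgeR, 0 of the 16961 genes passed (0%), with 7.61% at an unadjusted p under 0.05, and in DESeq2 1.8% passed and none of the members. At that unadjusted level were 2 of the 7. The 2iJ side is a single library, taken on day 5.

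Against 2i as well as 2iJ, each 2iJ+B-A library was lower for 5 of the 7, namely Prdm1, Prdm14, Dnd1, Kit and Ifitm3, where 17% of all genes showed such a separation downward. No member showed it upward, where 26.5% of all genes did. At the matched day 5, 5 of the 7 were at least 2-fold lower in 2iJ+B-A than in 2iJ, where 7.41% of all genes were, and none was 2-fold higher, where 13.9% were. Prdm1 was 9.24-fold lower there (95% interval 7.56 to 11.4), Dnd1 2.97-fold (2.56 to 3.45), Dppa3 2.94-fold (2.69 to 3.22), Ifitm3 2.79-fold (2.56 to 3.04) and Nanos3 2.29-fold (1.80 to 2.92). Kit was 1.32-fold lower (1.25 to 1.39) and Prdm14 1.11-fold (1.014 to 1.22). These ratios rest on the single 2iJ library. In 2i on day 5 the levels were nearer, at 11.9 CPM for Dnd1, 23.3 CPM for Dppa3, 48.9 CPM for Ifitm3 and 4.90 CPM for Nanos3. The 2iJ+B-A library of day 5 had 8.04, 22.0, 25.1 and 3.43 CPM of these genes. For Prdm1 the levels were 28.7 CPM in 2i and 3.47 CPM in 2iJ+B-A. These intervals cover counting error, and no replicate of a condition on a given day was available.

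Dppa3 was the exception on day 2, when it was 1.42-fold higher in 2iJ+B-A than in 2iJ (95% interval 1.33 to 1.51). With 2i and 2iJ pooled as the reference its fitted change became 0.002. On day 2, 3 of the 7 were at least 2-fold lower than in 2iJ (Prdm1, Dnd1 and Ifitm3), where 8.14% of all genes were, and none was 2-fold higher, where 9.85% were. On day 11, 6 were, all but Prdm14, where 9.37% of all genes were, and none was 2-fold higher, where 12.3% were.

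**Figure D4:**
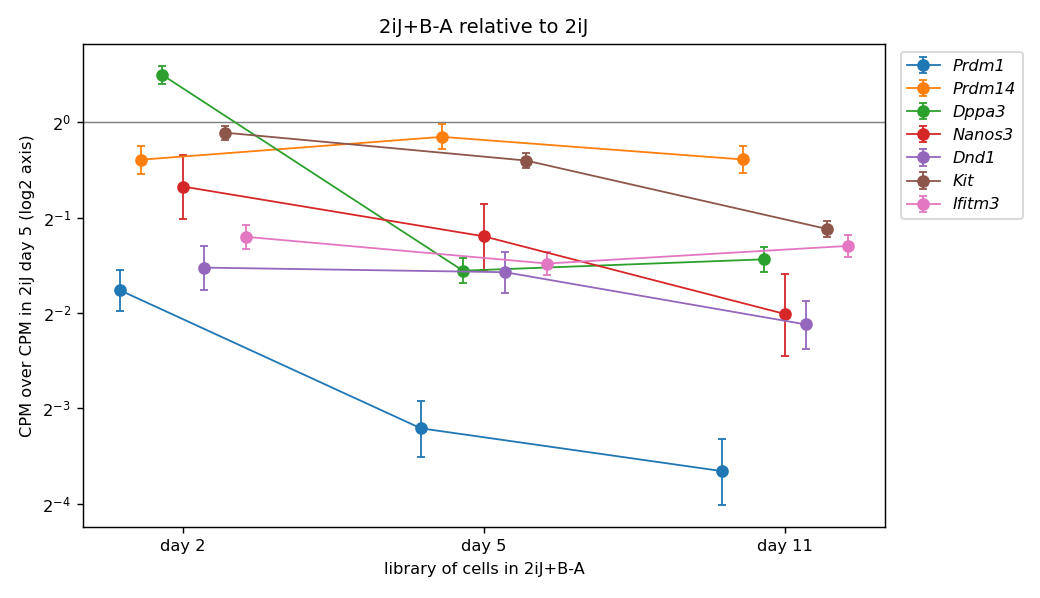
CPM in 2iJ+B-A on days 2, 5 and 11 divided by CPM in 2iJ on day 5 (log2 axis), with 95% exact intervals for counting error as bars. The points of Prdm1 lie at 0.295, 0.108 and 0.0793 and those of Prdm14 between 0.763 and 0.9004, and Dppa3 on day 2 is the only point above 1.

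The inducing signals around these genes were measured in the same libraries. Id1, a direct target of BMP-activated SMAD proteins, was at 5.12 CPM in 2i and 11.75 CPM in 2iJ, and between 103 and 132 CPM in 2iJ+B-A. Id2 (6.39, 13.0 and 97.5 to 160 CPM) and Id3 (11.97, 15.3 and 72.4 to 86.5 CPM) had the same order, and none of the 3 passed the test across all genes (adjusted p = 0.244, 0.488 and 0.47). T was at 1.315 CPM in 2i, 1.362 CPM in 2iJ and between 0.228 and 0.668 CPM in 2iJ+B-A. In 2iJ+B-A, high levels of the BMP targets thus stood beside low levels of Prdm1. Low levels of T were found in 2i and 2iJ as well, where Prdm1 was highest. Of the 16 inducing-signal genes, 9 had a positive and 7 a negative fold change in 2iJ+B-A against 2iJ, and none passed.

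Kitl, the ligand of Kit, was at 3.80 CPM in 2i, 5.06 CPM in 2iJ and 9.42, 15.4 and 28.5 CPM on days 2, 5 and 11, the opposite order to its receptor (fold change 1.74 on the log2 scale, adjusted p = 0.763). Tcfap2c, the partner of Prdm1 and Prdm14 that is also active in trophectoderm, was at 47.9 CPM in 2i, 66.2 CPM in 2iJ and 117, 81.4 and 38.6 CPM in 2iJ+B-A. Nanog was at 985, 773 and 506 to 581 CPM in these groups, and Pou5f1 at 1043, 977 and 866 to 1075 CPM. Nanog and Pou5f1 thus differed less across the days of 2iJ+B-A than Prdm1, whereas Tcfap2c was lower on each later day.

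**Figure D5:**
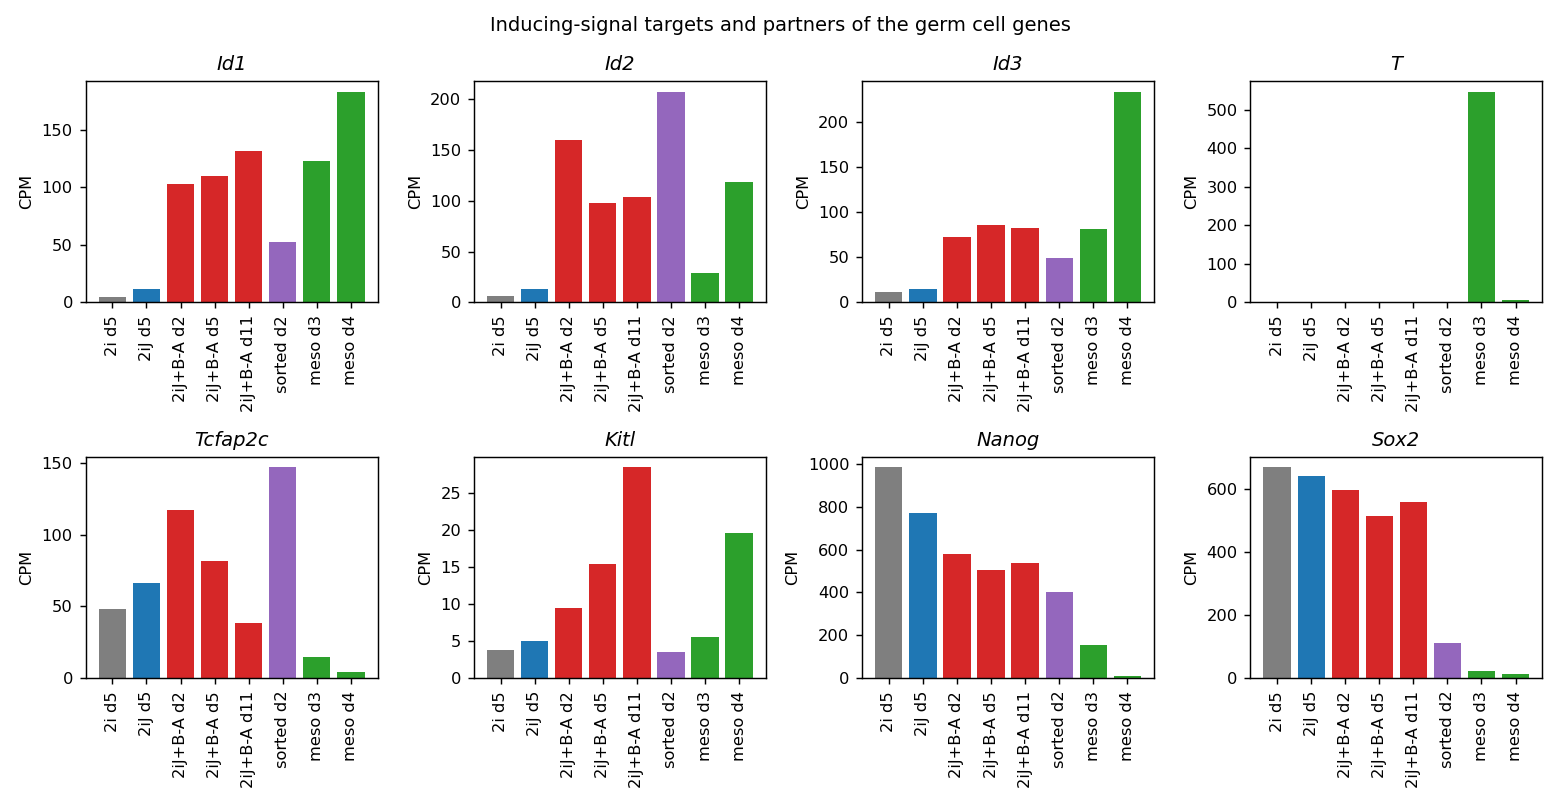
CPM (linear axis from 0, a separate scale per gene) of BMP targets Id1, Id2 and Id3, of T, and of Tcfap2c, Kitl, Nanog and Sox2 in the 8 libraries, colored by group as for the members. Id1 is at 5.12 and 11.75 CPM without BMP4 and at 103 to 132 CPM in 2iJ+B-A, and T is at 547 CPM in the mesoderm progenitors of day 3 and at most 6.30 CPM elsewhere.

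The effect of the JAK inhibitor alone was described by 2iJ against 2i, with 1 library on each side and the same day. No member passed, and every adjusted p was 1 in edgeR, where 0% of all genes passed and 0.507% had an unadjusted p under 0.05; in DESeq2 none passed. Dppa3 was at 64.6 CPM against 23.3 CPM, a 2.77-fold higher level (95% interval 2.53 to 3.03), and Dnd1 2.01-fold higher (1.76 to 2.31). At least 2-fold higher were thus 2 of the 7, where 6.15% of all genes were, and none was 2-fold lower, where 3.15% were. Nanos3 was 1.60-fold higher (1.28 to 2.01) and Ifitm3 1.43-fold higher (1.33 to 1.53), whereas Prdm14 was 1.30-fold lower (1.19 to 1.41) and Kit 1.20-fold lower (1.14 to 1.26). Prdm1 was 1.12-fold higher (1.011 to 1.23). The spread between such cultures was not measured, so these intervals understate the error of a difference between treatments.

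Time in 2iJ+B-A was tested as a slope on the log2 of the day over days 2, 5 and 11. No member passed, where 0% of all genes passed and 5.92% had an unadjusted p under 0.05; DESeq2 called 0.678% of all genes and no member. Dppa3 had a slope of -0.81 per doubling of the day (SE 0.30, unadjusted p = 0.0421, adjusted p = 0.837), Prdm1 -0.79 (SE 0.51, adjusted p = 0.858), Nanos3 -0.55 and Kit -0.41. Dnd1 had -0.25, Ifitm3 -0.05 and Prdm14 -0.004. Without day 2 the Dppa3 slope turned to 0.13, so its decline rests on that library. In fits without 1 of the mesoderm progenitor libraries, which lend the test its spread, 2 or 3 members passed, namely Dppa3 and Prdm1 (adjusted p = 0.0477 and 0.0411 without day 3, 0.0314 and 0.0325 without day 4) and, without day 4, also Kit (0.0419). Of all genes, 2.27% and 2.81% passed in these fits.

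Between days 2 and 11, 4 of the 7 were at least 2-fold lower, where 8.73% of all genes were, and none was 2-fold higher, where 10.8% were. Dppa3 was 3.83-fold lower (95% interval 3.52 to 4.17), Prdm1 3.72-fold (2.87 to 4.88), Nanos3 2.52-fold (1.84 to 3.50) and Kit 2.01-fold (1.89 to 2.14). Prdm14 did not differ beyond counting error (ratio 1.00, 0.903 to 1.11), nor did Ifitm3 (ratio 0.936, 0.848 to 1.03). Endoderm markers moved over the same days. Their 9 genes summed to 17.5, 41.0 and 177 CPM, with 5, 7 and 8 of them at 1 CPM or more and with Afp and Ttr at 0 counts on day 2, against 9.65 CPM in 2iJ. The 9 trophectoderm genes summed to 468, 1345 and 642 CPM, with 8 of 9 at 1 CPM or more on each day and none at 0, against 60.4 CPM in 2iJ. The part of these other cell types in the levels of the members was not tested.

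The Cdx2-GFP-positive cells were compared with unsorted 2iJ+B-A. No member passed in edgeR, where 5.42% of all genes did, 3.34% upward and 2.08% downward. At an unadjusted p under 0.05 were 2 of the 7 and 27% of all genes, and DESeq2 called 2 members (Dnd1 and Kit) and 15.9% of all genes. Dnd1 came nearest with a log2 fold change of -2.87 (SE 0.63, adjusted p = 0.0534), followed by Kit with -2.06 (SE 0.71, adjusted p = 0.132) and Prdm14 with -1.63 (SE 0.79, adjusted p = 0.242). With only these groups in the fit, all 3 passed (adjusted p = 0.0324, 0.0415 and 0.0243), as did 12% of all genes in that fit. Dppa3 had 1.51 (SE 0.84, adjusted p = 0.297), Ifitm3 -0.83, Nanos3 -0.21 and Prdm1 0.17.

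At the matched day 2, Dnd1 was 8.67-fold lower in the sorted library (95% interval 5.41 to 14.7), Kit 5.59-fold (5.03 to 6.24), Prdm14 3.03-fold (2.56 to 3.60) and Ifitm3 2.00-fold (1.75 to 2.30). These are 4 of the 7, where 18.8% of all genes were at least 2-fold lower, and none was 2-fold higher, where 17.5% were. Prdm1 was 1.69-fold lower (1.34 to 2.14) and Nanos3 1.71-fold lower (1.24 to 2.39). Dppa3 alone was higher, by 1.39-fold (1.31 to 1.47). The sorted library came from another line, and its unmapped share and its fibroblast genes were the highest (Col1a1 and Col3a1 rose, adjusted p = 0.0403 and 0.0357). Their part in these values was not tested, and the line, the sort and the library cannot be told apart.

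The wider germ cell program was described by lists around the members. In the mesoderm progenitors against 2iJ+B-A, 6 of the 16 inducing-signal genes rose and 1 fell, where 11.5% of all genes rose and 15.5% fell. T rose by 9.34 on the log2 scale (SE 1.80, adjusted p = 0.0144), Wnt3 by 5.89 and the BMP-activated transcription factors Smad1 and Smad5 by 2.35 and 1.23, while the ligand Bmp8b fell by 3.59 (SE 0.83, adjusted p = 0.0239). The ligand Bmp2 and the shared SMAD partner Smad4 were the other risers. The list's median log2 fold change was 0.93. The other 9 genes did not pass, among them Bmp4 (7.03 and 161 CPM in the mesoderm progenitors, 9.82 to 24.7 CPM in 2iJ+B-A, adjusted p = 0.17) and Id1 (adjusted p = 0.196).

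Where 11.5% of all genes rose and 15.5% fell, 2 of 16 partners and early markers rose, the chemokine receptor Cxcr4 and the RNA-binding Lin28a. Of this list 7 genes fell (list median -1.04). Among those that fell were the AKT co-activator Tcl1 (-7.58 on the log2 scale), the alkaline phosphatase Alpl (-3.71), Esrrb (-5.75) and Sox2 (-4.96). Tcfap2c fell by 3.06 (SE 0.68, adjusted p = 0.0218). Of 9 measured repressors of germ cell fate and markers of primed epiblast, 4 rose and 1 fell (list median 1.04). Fgf5, a ligand of primed epiblast, rose by 6.95, Hoxb1 by 5.47, Snai1 by 3.28 and the DNA methyltransferase Dnmt3b by 1.53. Foxd3 fell by 7.06. The rise of Fgf5 rests mainly on day 3 of the mesoderm progenitors, with 38.8 CPM against 0.937 CPM on day 4. In 2iJ+B-A, Fgf5 was near the smallest level, at 0, 0.159 and 0.293 CPM on days 2, 5 and 11. Otx2, known for restraining germ cell entry, was at 48.2 and 8.21 CPM in the mesoderm progenitors and at 41.6, 38.3 and 74.8 CPM in 2iJ+B-A (adjusted p = 0.397).

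Of 14 measured genes of later germ cells, 9 fell and none rose (list median -3.34), where 15.5% of all genes fell and 11.5% rose. Dazl, an RNA-binding protein of the germline, had a log2 fold change of -7.60 (SE 0.42, adjusted p = 0.000889), the meiotic gene Hormad1 -7.24, the piRNA-pathway gene Tdrd12 -6.07 and the transposon-silencing gene Mael -5.76. Ddx4 (Vasa) was at 5.18 and 0.840 CPM in the mesoderm progenitors, 8.66 to 15.7 CPM in 2iJ+B-A, 13.6 CPM in 2i and 20.9 CPM in 2iJ. The 15 matched genes of this list summed to between 236 and 343 CPM in the 6 stem cell libraries and to 24.0 and 8.53 CPM in the mesoderm progenitors, and Nanos2 was at 0 counts in 7 libraries.

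All 5 measured genes of the Dppa and Nanos list fell in the mesoderm progenitors (list median -4.31), for instance Dppa5a (-4.89) and Dppa2 (-4.31). Over all genes, 15.5% fell and 11.5% rose, 27% in either direction, and the calls in the Prdm and Ifitm lists were near that share. Of 11 other Prdm genes, Prdm6 rose by 4.87 and Mecom by 2.13, Prdm16 fell by 3.55, and the list median was 0.31. Of 4 other Ifitm genes, Ifitm7 fell by 4.15 from at most 1.56 CPM in 2iJ+B-A, while Ifitm1 and Ifitm2 had log2 fold changes of 0.04 and -0.43 (adjusted p = 0.95 and 0.137), with a list median of -0.31. Of 8 genes of Kit signaling and related receptors, Pdgfra rose by 3.00 and Pdgfrb by 1.97, the adaptor Grb2 fell by 0.62 and Flt3 by 5.79, and the list median was -0.30. The cell type lists had 8 of 10 pluripotency genes lower, 7 of 8 nascent mesoderm genes higher, 6 of 10 blood and endothelium genes higher and 1 lower, 1 of 9 trophectoderm and 1 of 8 endoderm genes lower, and 0 of 5 fibroblast genes changed.

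In the sorted cells against 2iJ+B-A, 2 later germ cell genes rose and 1 fell (list median 1.45), where 3.34% of all genes rose and 2.08% fell. The piRNA-pathway gene Piwil2 rose by 3.44 (SE 0.44, adjusted p = 0.0174) and the synaptonemal complex gene Sycp1 by 2.27, and Dazl fell by 1.99. Alpl rose by 1.18 among the partners, whereas Sox2 (-2.29), Tcl1 (-3.47), Lin28a (-1.37) and Esrrb (-1.39) fell (list median -0.47). Dppa1 rose by 8.03 (SE 0.53, adjusted p = 0.00543), from under 1 CPM in each 2iJ+B-A library to 174 CPM. Ifitm2 fell by 1.56 (SE 0.26, adjusted p = 0.0314), and Ifitm1 was at 37.0 CPM against 98.0 to 249 CPM in 2iJ+B-A (adjusted p = 0.0893). Smad5 fell by 1.09 among the inducing signals, and no gene of the Prdm, Kit and repressor lists passed. Cdx2 and Krt18 rose among 9 trophectoderm genes, 2 of 10 pluripotency genes fell and no endoderm, mesoderm or blood gene passed. In 2iJ+B-A against 2iJ, 2iJ against 2i and the slope on day, no gene of any list passed. These comparisons share the 2iJ+B-A or the 2iJ libraries and are not independent of each other.

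Genes whose levels followed a member most closely over the 8 libraries were found by Pearson's correlation of log2 CPM among 9281 protein-coding genes with a mean of at least 10 CPM. The points share libraries and a cell line, and the mesoderm progenitors lie far from the rest, so the values only describe likeness. Among the nearest to Prdm14 were Lipo1 (r = 0.995) and the ligand gene Fgf4 (0.994). Among those nearest to Dppa3 were Auh (0.987) and Nudt4 (0.981), and those nearest to Nanos3 were Chchd10 (0.988), the thymidylate kinase gene Dtymk (0.982) and the nucleoporin gene Nup210 (0.980). For Kit they were the collagen gene Col9a2 (0.978), Grasp (0.970) and Atl3 (0.966).

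For Prdm1, which did not follow the split between stem cells and mesoderm, they were Crlf3 (0.95), the helicase gene Mcm9 (0.933) and Armc10 (0.921). Dnd1 was nearest to Brpf3 (0.989), 5830415F09Rik (0.977) and 1110008L16Rik (0.966). Ifitm3 was nearest to the zinc finger gene Zic5 (0.969), to Socs2 (0.960), a feedback inhibitor of cytokine signaling, and to Slmo2 (0.952). Socs2 ranged from 8.98 to 94.9 CPM over the libraries and Fgf4 from 3.00 to 291 CPM, whereas Crlf3 stayed between 52.1 and 103.5 CPM.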

How the data were processed

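Per the labels and the study's methods, poly-A RNA was made into strand-specific libraries, sequenced as read pairs, trimmed with cutadapt and aligned to NCBIM37 with STAR 2.4.2a. The authors deposited raw, whole-number counts that STAR made per gene, unstranded and for each strand, with no replicates pooled. The annotation release is not given in the sources used here. The study adjusted its values for different experiment days, and these counts carry no such adjustment. Sample codes differ in their initial letter between mesoderm progenitors, sorted cells and unsorted mESCs, so a batch that followed them cannot be told apart from these groups.

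Reverse-strand counts were used. Groups and days came from the labels, and the days of a group served as its samples. The p-values thus measure the spread between the days of 2iJ+B-A and between those of the mesoderm progenitors, where treatment differs too. Nothing in the labels says that libraries came from separate cultures of a condition. All 8 libraries were fitted with edgeR 4.0.16 (R 4.3.3, quasi-likelihood F test, TMM scaling) with 5 group coefficients and 3 residual degrees of freedom over the 16961 genes that reached 10 counts in 2 or more libraries. The common biological coefficient of variation was 0.363. A slope on log2(day) in 2iJ+B-A left 2. P-values were adjusted by Benjamini-Hochberg over all genes, with a threshold of 0.05. Standard errors are the log2 fold change over the square root of F. Ratios of single libraries carry exact conditional 95% intervals. The functions were tested on simulated data before use. Alternatives were DESeq2 1.42.0, its size factors, no filter, unstranded counts, other sets of libraries and each library left out.

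Named genes are the 7 members, up to 4 genes with the lowest adjusted p of each list, a few fixed partners, and the 3 genes nearest each member (log2 CPM with a prior count of 2), of which 2 are not reported here. Id2, Id3, Bmp2, Bmp8b, Cxcr4, Lin28a, Dnmt3b, Ddx4, Nanos2, Tal1, Dcn, Afp, Ttr and, in the sorted cells, Esrrb were added after their values were seen. Members and lists were chosen with earlier results of these data known. GENCODE vM1 named 37205 of 37620 identifiers; Rhox5 and Ifitm10 had no match, and the low counts of Pou3f1, which shares its place with another identifier, are not described.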

Additional observations from a re-analysis of the deposited data

Results flagged for a closer look

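Dnd1 drew reads on the opposite strand in every library, with a median of 31.4% of its strand-assigned counts over the 8 libraries, where the share over all genes was between 5.03% and 6.47%. It was flagged because these counts lie outside the strand that the comparisons used. The share was 12.3% in 2iJ, 18.7% in 2i, 24.2%, 25.1% and 37.6% on days 2, 5 and 11 of 2iJ+B-A, 39.1% and 52.4% in the mesoderm progenitors of days 3 and 4 and 65.4% in the sorted cells. The opposite-strand counts themselves varied less, from 36 to 102, than the Dnd1 counts, from 19 to 614. Wdr55 overlaps the end of Dnd1 on that strand, and its part in these counts was not tested. Of the other 6 members, Prdm1 was above the library's own share in 2 libraries, 2i (8.39% against 6.17%) and day 5 of 2iJ+B-A (7.63% against 5.54%), and the other members in none.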

How the results depend on the processing

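Among refitted fold changes of the members, 333 kept their direction and side of the threshold, 23 newly passed, 3 (all Kit in the mesoderm comparison) no longer passed and 12 changed sign. Member counts stayed within 1.5 times in 45 refits and not in 8. For the mesoderm progenitors against 2iJ+B-A, DESeq2 called 5 members (Nanos3 and Dnd1 added) in place of 3, and leaving out 1 library gave 2 to 4. For the sorted cells, DESeq2 called 2, no filter 1 (Dnd1), the fit of only the compared groups 3 and leaving out 1 library 0 to 3, in place of 0. For the slope, leaving out 1 library gave 0 to 3 in place of 0. It gave 0 for 2iJ+B-A against 2iJ and for 2iJ against 2i. The fits without the sorted library, chosen after seeing the data, left the member counts within 1.5 times.

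Signs that changed were those of Prdm1 and Ifitm3 in the mesoderm comparison (-0.844 without day 4 and -0.722 without day 3, with ranges over the libraries left out up to 2.035 and 1.305), of Dppa3 in 2iJ+B-A against 2iJ (0.002 with 2i and 2iJ pooled), of Prdm1 in the sorted cells (-0.074 without day 5 of 2iJ+B-A, -0.168 without day 11, up to 0.964 without day 2, and -0.603 when compared at day 2 of a slope) and of Nanos3 there (0.162 without day 2, down to -0.493). Slopes changed sign for Prdm14 (0.002 with the size factors of DESeq2 and 0.002 with its test, 0.122 without day 11, down to -0.18) and, without day 2, for Dppa3 (0.133, down to -1.614 without day 11) and Ifitm3 (0.19, down to -0.271). The cause was not tested.

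Over all genes, calls went from 4584 to 2019 and 2666 without day 5 or day 11 of 2iJ+B-A in the mesoderm comparison, and from 0 to 305 (DESeq2) and 150 (2i and 2iJ pooled) in 2iJ+B-A against 2iJ. In the sorted cells they went from 919 to 2697 (DESeq2), 1390 (no filter), 1911 (only the compared groups), 27 (at day 2 of a slope) and between 37 and 2052 with 1 library left out. For the slope they went from 0 to 115 (DESeq2), 2 (no filter), 379 and 469 (without day 3 or day 4 of the mesoderm progenitors). Levels moved by factors of 0.963 to 1.04 with TMM scaling and 0.982 to 1.08 with unstranded counts. Depth limits Dppa3 and Nanos3 in the mesoderm progenitors, at 1 to 25 counts. No paired analysis was possible because the labels give no replicate numbers, and the numbers used here only order the days within a group.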
